A study of Mus musculus with 18 samples.

Results

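The comparison set the 3 regulatory T cell (Treg) libraries that carry a Dyrk1 label, of 18 libraries in all, against the 12 libraries of the other 4 deletion labels, HDAC1, HDAC2, Mef2c and Mef2d, with 3 libraries each. The members were taken from the sample titles. Every mouse carried the Foxp3-YFP-cre allele, whose Foxp3 promoter drives the Cre recombinase and yellow fluorescent protein (YFP), so that deletion is restricted to cells that have switched on Foxp3. The Dyrk1-labelled mice also carried floxed Dyrk1, and the others floxed HDAC1, HDAC2, Mef2c or Mef2d. All were male and 6 to 8 weeks old. CD4+ cells were enriched on a column and sorted on YFP, and gene levels were read from total RNA by sequencing. A further 3 libraries of mice with the cre allele alone (wild type) took no part in any test, and their values are given as a description where they bear on a result. The labels do not say which Dyrk1 gene was floxed, and the growth protocol also speaks of Rcor1, a corepressor that no label names as deleted.

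DYRK1A and DYRK1B are kinases that activate themselves by phosphorylating a tyrosine and then phosphorylate serines and threonines of other proteins. In cycling cells they favour exit from the cell cycle: they phosphorylate LIN52, which lets the MuvB core join p107 or p130 and E2F4 as the DREAM repressor, and they phosphorylate D cyclins and p27. DREAM silences genes of DNA replication and mitosis in resting cells, whereas MuvB with B-MYB and FOXM1 activates the mitotic ones in dividing cells. In T cells DYRK1 kinases are also known for phosphorylating NFAT, which sends it out of the nucleus, and a fraction of Treg in a healthy mouse is always dividing.

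The libraries held 15.9 to 24.1 M reads across the 15 deletion-labelled libraries, recovered from the smallest steps of the values, and 18.4 to 21.8 M under the Dyrk1 label. The Treg markers Foxp3, Cd4, Cd3e, Il2ra, Ctla4 and Ikzf2 summed to 944 to 1024 FPKM in the Dyrk1-labelled libraries and to 926 to 1131 FPKM in the other 12, and none of the 6 passed the limma test, with 1 at an unadjusted p under 0.05. Foxp3 itself had 96.8, 113 and 111 FPKM in the Dyrk1-labelled libraries, against 82.5 to 118 FPKM (median 101) in the other 12. Replicate 1 under the Dyrk1 label stood apart in transcripts of other cells. Its B cell markers summed to 439 FPKM, against 38.0 and 32.4 FPKM in the 2 others of its label and 47.6 to 194 FPKM in the 12 libraries of the other labels. Its myeloid and dendritic cell markers summed to 534 FPKM, against 44.9 and 42.7 FPKM in replicates 2 and 3 and 22.03 to 360.4 FPKM elsewhere. Its CD8 T and NK cell markers summed to 216 FPKM, against 93.3 and 88.7 FPKM in replicates 2 and 3 and 51.3 to 169.8 FPKM elsewhere. Counts without it are given for all genes and for the larger gene lists. These are bulk samples, in which fewer cells of a type and less RNA per cell cannot be told apart.

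Neither Dyrk1 gene was lower in the Dyrk1-labelled libraries. Dyrk1a, the broadly expressed kinase, had 32.6, 30.8 and 35.9 FPKM in the Dyrk1-labelled libraries, against 27.4 to 33.2 FPKM (median 29.1) in the other 12. The groups overlapped, and the difference did not pass (log2 difference 0.15 ± 0.06, adjusted p = 0.0989). Here and below, a difference is the Dyrk1-labelled mean minus the mean of the 4 other label means of log2(FPKM + 1), given ± its standard error, with Benjamini-Hochberg adjusted p-values of limma over all genes tested and 0.05 as the threshold. Means are given ± SD over the 3 Dyrk1-labelled libraries and over the other 12. Dyrk1b, its close relative, had 11.01, 11.8 and 12.6 FPKM in the Dyrk1-labelled libraries, against 6.57 to 9.15 FPKM (median 8.63) in the other 12. All 3 libraries lay above all 12, and Dyrk1b was higher under the Dyrk1 label (log2 difference 0.47 ± 0.08, adjusted p = 0.000918). The values cover whole genes, so a loss of single exons could not be seen, and the libraries are called Dyrk1-labelled throughout. Of the genes named by the other labels, Mef2d fell below all 12 libraries at 41.5, 37.7 and 34.7 FPKM under the Dyrk1 label and 43.9 to 53.9 FPKM (median 49.7) under the others (log2 difference -0.38 ± 0.05, adjusted p = 0.000298), and passed against each of the 4 labels. The Mef2d label itself held the highest mean, 53.4 ± 0.561 FPKM (SD, n = 3). Wild-type libraries held 40.9, 46.6 and 37.5 FPKM, overlapping the Dyrk1-labelled ones. Hdac1 averaged 124 ± 6.10 FPKM under the Dyrk1 label and 92.1 ± 36.6 under the others, a difference set by the HDAC1 label, which held 31.997 ± 4.34 FPKM, and its call ended without that label. Hdac2, Mef2c and Rcor1 did not pass. Of the 4 genes that the other labels name, only Hdac1 was low under its own label: Hdac2 averaged 27.9 ± 0.937 FPKM under HDAC2, and Mef2c 1.27 ± 0.594 FPKM under Mef2c, both within the range of the other label means. Under the Dyrk1 label Mef2c had 8.02, 0.536 and 0.795 FPKM, with its high value in the replicate rich in B cell markers.

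Of 12157 genes tested, 2555 (21.0%) passed, of which 1127 (9.27%) were higher under the Dyrk1 label and 1428 (11.7%) lower. Most differences were small: the median absolute log2 difference of the genes that passed was 0.367, while 115 rose and 47 fell by 1 or more on the log2 scale. The median over all genes tested was -0.02. All 3 Dyrk1-labelled libraries lay above all 12 others for 586 genes (4.82%) and below them for 569 (4.68%). A stricter rule counted genes that passed against each of the 4 labels taken singly, in 1 direction. It held for 574 genes (4.72%), 325 higher (2.67%) and 249 lower (2.05%). The labels compared differed in how far they stood from the Dyrk1 label. Against HDAC1 alone 1156 genes (9.51%) passed, against Mef2d 2011 (16.5%), against HDAC2 2041 (16.8%) and against Mef2c 2291 (18.8%). When each other label was set in turn against the mean of its own 4 comparators in the same fit, 598 genes passed for HDAC1, 655 for Mef2d, 781 for HDAC2 and 1026 for Mef2c, compared with 2555 for Dyrk1. These counts share all 15 libraries and were not tested against each other. Scaling the libraries by the median ratio of their values moved the split to 1378 higher and 1195 lower, so the balance of directions depended on scaling. Without replicate 1 of the Dyrk1 label 2131 genes passed, and 534 did so against each of the 4 labels. The stricter count rested on HDAC1 more than on any other label: it was 376 without HDAC1 replicate 2 and 866 without the HDAC1 label. The counts of list members that follow stand beside the shares of all genes, 9.27% higher and 11.7% lower, and several lists come close to these.

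**Figure D1:**
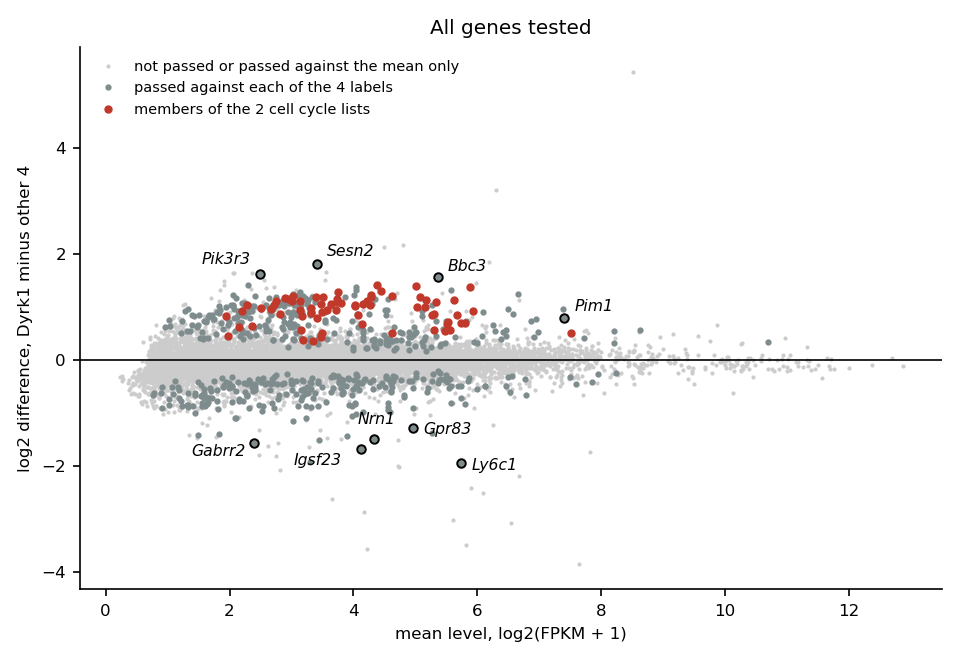
Mean level (horizontal axis, the Dyrk1-labelled and the other mean FPKM averaged, as log2(FPKM + 1)) against the log2 difference, Dyrk1 label minus the mean of the other 4, for the 12157 genes tested. Darker grey points passed against each of the 4 labels, red points are members of the lists of S phase and mitosis, which all lie above 0, and circled genes are named in the text. Far grey points without a name include Rps3a3 and Gm8730, whose reads may be shared with close relatives.

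The machinery of DNA replication was higher as a group. All 34 measured genes of an S phase list of 35 were higher in the Dyrk1-labelled libraries, against 9.27% of all genes, with a median log2 difference of 0.75 and a range of 0.37 to 1.18. Of these, 26 passed against each of the 4 labels and 25 lay above all 12 libraries, against 2.67% and 4.82% of all genes. The member not tested, Fen1, failed the filter on low values. E2f2, a transcription factor that switches on S phase genes, had 44.2, 42.99 and 50.6 FPKM in the Dyrk1-labelled libraries, against 16.6 to 23.6 FPKM (median 19.1) in the other 12. The groups did not overlap (log2 difference 1.18 ± 0.08, adjusted p = 1.13e-06). Uhrf1, which keeps DNA methylation in place at replication forks, had 49.3, 45.7 and 49.2 FPKM under the Dyrk1 label and 14.1 to 31.7 FPKM (median 21.3) under the others (log2 difference 1.13 ± 0.10, adjusted p = 1.14e-05). Mcm6, a subunit of the replicative helicase, had 68.8, 62.9 and 72.3 FPKM in the Dyrk1-labelled libraries, against 36.7 to 48.8 FPKM (median 40.1) in the other 12 (log2 difference 0.70 ± 0.07, adjusted p = 1.83e-05). For Uhrf1 and Mcm6 as well, each Dyrk1-labelled library exceeded each of the 12. Mcm4, of the same helicase, changed less, at 55.5 ± 1.17 FPKM under the Dyrk1 label and 37.2 ± 3.36 under the others (log2 difference 0.57 ± 0.05, adjusted p = 1.03e-05), and Rfc4, of the clamp loader, averaged 20.6 ± 1.44 FPKM under the Dyrk1 label and 10.999 ± 1.32 under the others (log2 difference 0.86 ± 0.08, adjusted p = 1.14e-05). Against the labels singly, 27 members passed against HDAC1 (3.78% of all genes were higher there), 33 against Mef2d (8.23%), 33 against Mef2c (8.57%) and 34 against HDAC2 (7.88%), with medians of 0.61, 0.82, 0.74 and 0.92. Lower genes made up 5.73% of all genes against HDAC1 and 8.91% against HDAC2, and no S phase or mitosis member was among them. Leaving out replicate 1 of the Dyrk1 label kept 32 of the 34 calls.

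Mitosis genes differed more. All 37 members of the list were higher, by a median of 1.08 and by 0.71 to 1.43. Of these, 33 passed against each of the 4 labels, against 2.67% of all genes, and 33 lay above all 12 libraries, against 4.82%. Kif11, the motor that drives spindle poles apart, had 29.9, 26.7 and 30.7 FPKM in the Dyrk1-labelled libraries, against 6.51 to 16.7 FPKM (median 9.83) in the other 12 (log2 difference 1.43 ± 0.11, adjusted p = 5.24e-06). Mki67, the proliferation marker Ki-67, had 43.1, 39.3 and 54.1 FPKM under the Dyrk1 label and 12.01 to 25.9 FPKM (median 16.02) under the others (log2 difference 1.39 ± 0.12, adjusted p = 7.97e-06). Top2a, the topoisomerase that untangles sister chromatids, had 84.7, 72.8 and 93.3 FPKM in the Dyrk1-labelled libraries, against 19.8 to 47.2 FPKM (median 30.4) in the other 12 (log2 difference 1.39 ± 0.12, adjusted p = 8.23e-06). In all of these genes the lowest Dyrk1-labelled library lay above the highest of the 12, which was an HDAC1-labelled library. Ccna2, the A-type cyclin, had 30.1, 28.5 and 30.9 FPKM under the Dyrk1 label and 6.78 to 17.4 FPKM (median 11.7) under the others (log2 difference 1.31 ± 0.11, adjusted p = 7.27e-06), and Nusap1, a spindle protein, had 18.4, 17.5 and 18.3 FPKM in the Dyrk1-labelled libraries, against 4.19 to 10.4 FPKM (median 6.76) in the other 12 (log2 difference 1.29 ± 0.10, adjusted p = 6.06e-06). Cdk1, the mitotic kinase, was less uniform, with 14.8, 13.5 and 8.15 FPKM under the Dyrk1 label and 3.90 to 9.54 FPKM (median 5.37) under the others. Its replicate 3 lay within the range of the others, and it passed against the mean (log2 difference 0.98 ± 0.17, adjusted p = 0.00118) but not against each label (largest adjusted p = 0.143). By label, 33 members were higher than under HDAC1 (median 0.74), 37 than under Mef2d (1.08), 37 than under Mef2c (1.10) and 37 than under HDAC2 (1.44). All 37 also passed without replicate 1 of the Dyrk1 label.

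The mean log2(FPKM + 1) over the mitosis list was 4.31, 4.17 and 4.20 in the Dyrk1-labelled libraries, against 2.64 to 3.67 (median 3.11) in the other 12. Over the S phase list it was 4.49, 4.39 and 4.41, against 3.39 to 4.03 (median 3.68). By label, HDAC2 was lowest and HDAC1 closest in both. The wild-type libraries held 3.80, 3.23 and 4.09 for mitosis and 4.11, 3.75 and 4.38 for S phase. In both lists wild-type replicates 1 and 3 lay above all 12 libraries of the other 4 deletion labels. For single genes, the ranges of the Dyrk1-labelled and wild-type libraries overlapped for 24 of the 34 S phase genes and 21 of the 37 mitosis genes, and the Dyrk1-labelled range lay above for the other 10 and 16. By the list mean the Dyrk1-labelled libraries were the highest of all 18, but the highest wild-type library came near them, and the differences tested are those from the other 4 deletions.

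**Figure D2:**
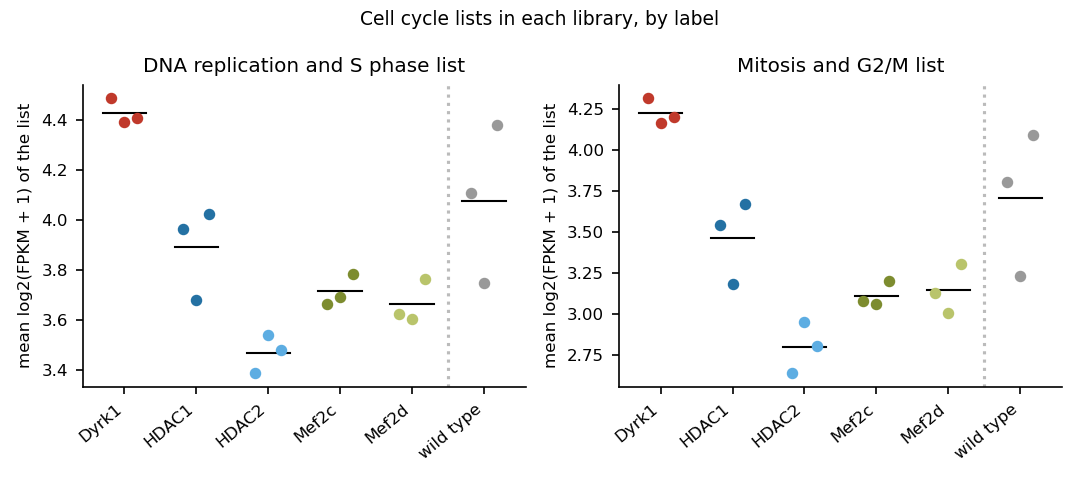
Mean log2(FPKM + 1) of the S phase list (left) and the mitosis list (right) in each library (points) with the mean of each label (line). The 3 Dyrk1-labelled libraries lie above the 12 other deletion-labelled libraries in both panels, and the wild-type libraries, right of the dotted line and not part of any test, spread from 3.23 to 4.09 for mitosis.

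**Figure D3:**
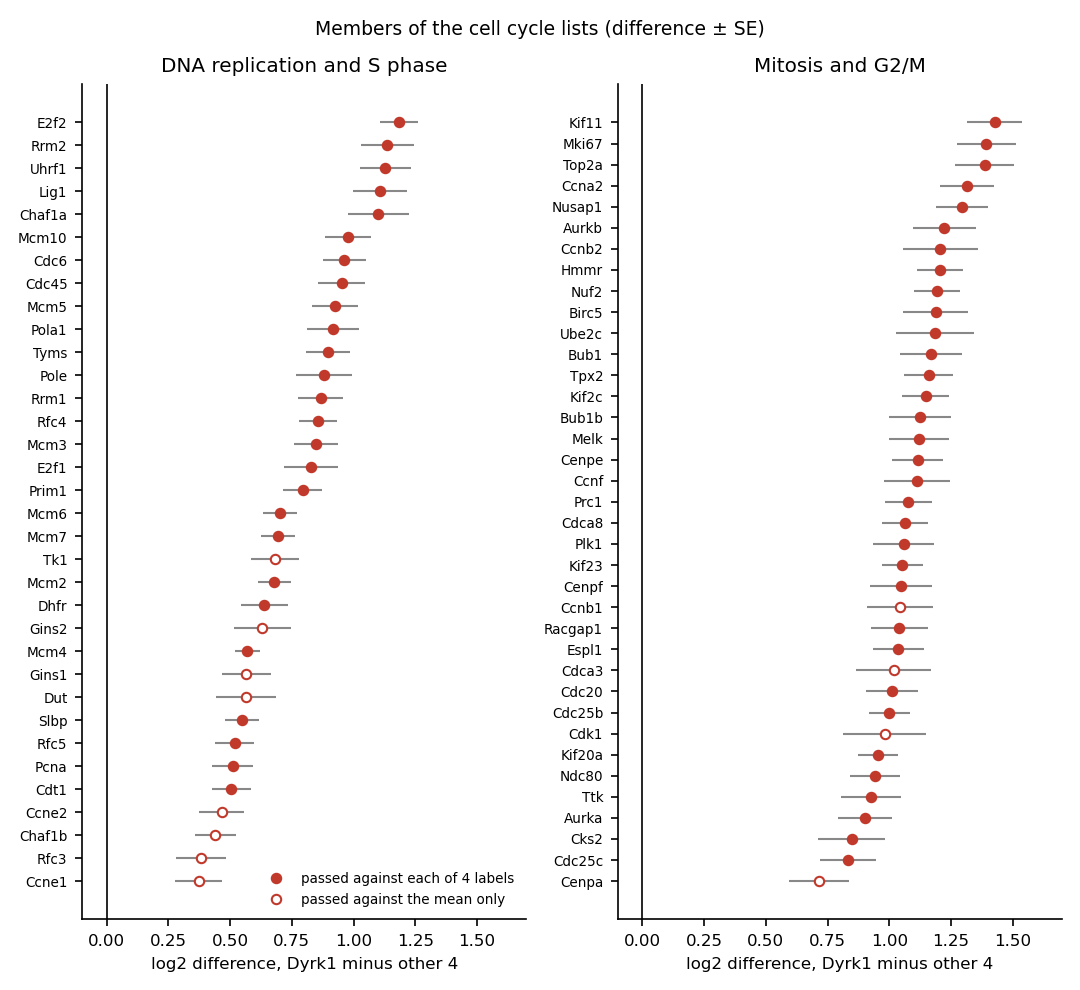
Log2 difference, Dyrk1 label minus the mean of the other 4, of every measured member of both lists (points) with its standard error (bars). Filled points passed against each of the 4 labels, and all differences lie between 0.37 and 1.43.

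The promoters of the mitosis genes shared sequence. Motif shares of a list cover all its tested members whatever their difference, so they describe the list and not the Dyrk1 label. The CHR, the site through which MuvB complexes bind, was searched as TTTGAA, and the box of the factor NF-Y as CCAAT, on both strands of windows from 250 bases before to 50 after each start in RefSeq (GRCm38.p6). A CCAAT and a CHR match may share an edge base. TTTGAA occurred in 72.7% of the 33 windows of the 32 matched mitosis genes, in 9.1% of the 33 windows of 28 S phase genes, in 12.4% of 11236 windows of genes tested and in 17.9% of all 32851 windows. Both motifs stood together in 66.7% of mitosis windows and 5.0% of tested ones. E2F letters, TTTCCCGC or TTTGGCGC, occurred in 27.3% of S phase windows, 0.0% of mitosis windows and 3.1% of tested ones. Among genes higher against each label the share with TTTGAA was 27.8%, and among those lower against each label 10.6%. Of the 325 genes higher against each label, 59 are members of the S phase and mitosis lists, so their share is not separate from those lists. The windows of the 3 mitosis members with the largest difference follow, as the sequences that carry the CHR, and that of Mcm6 as an S phase member with E2F letters, chosen after its matches were seen. Capitals mark TTTGAA and CCAAT letters, or their reverse complements, in the mitosis genes and E2F letters in Mcm6. Kif11 lies at chr19:37376132-37376431, plus strand, Mki67 at chr7:135716330-135716629, minus strand, Top2a at chr11:99024140-99024439, minus strand and Mcm6 at chr1:128359656-128359955, minus strand.
Kif11: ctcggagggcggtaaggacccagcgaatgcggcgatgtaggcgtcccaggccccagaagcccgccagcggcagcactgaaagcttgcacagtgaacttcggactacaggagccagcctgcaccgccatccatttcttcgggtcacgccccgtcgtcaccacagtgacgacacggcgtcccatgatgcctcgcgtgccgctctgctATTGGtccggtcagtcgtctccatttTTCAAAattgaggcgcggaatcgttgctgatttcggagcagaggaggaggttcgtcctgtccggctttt
Mki67: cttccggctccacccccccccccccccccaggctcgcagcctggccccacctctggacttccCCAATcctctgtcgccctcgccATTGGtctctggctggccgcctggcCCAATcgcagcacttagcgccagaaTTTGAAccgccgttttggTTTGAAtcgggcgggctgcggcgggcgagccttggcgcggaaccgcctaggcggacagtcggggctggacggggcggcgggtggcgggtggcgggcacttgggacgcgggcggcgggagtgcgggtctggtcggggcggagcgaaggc
Top2a: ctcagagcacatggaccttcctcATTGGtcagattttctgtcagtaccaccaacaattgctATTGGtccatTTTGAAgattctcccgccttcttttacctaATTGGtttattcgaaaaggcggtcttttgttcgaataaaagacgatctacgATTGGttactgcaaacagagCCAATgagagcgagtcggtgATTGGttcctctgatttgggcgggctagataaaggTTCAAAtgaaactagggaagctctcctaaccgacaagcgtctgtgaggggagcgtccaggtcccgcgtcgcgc
Mcm6: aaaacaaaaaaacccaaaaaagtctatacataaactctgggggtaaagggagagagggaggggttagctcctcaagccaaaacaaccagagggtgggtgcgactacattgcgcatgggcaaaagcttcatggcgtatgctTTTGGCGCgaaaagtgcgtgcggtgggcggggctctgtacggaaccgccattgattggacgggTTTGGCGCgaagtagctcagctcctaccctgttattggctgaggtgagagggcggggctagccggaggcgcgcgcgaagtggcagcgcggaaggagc
The Kif11 window holds 1 CHR match and 1 CCAAT match, that of Mki67 2 and 3, and that of Top2a 2 and 6. Mcm6 holds 2 E2F matches and no TTTGAA. A match is a run of letters, not a measured binding site.

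Of 13 tested genes of the complexes that read these motifs, 7 were higher and 2 lower, against 9.27% and 11.7% of all genes. Without replicate 1 of the Dyrk1 label 6 were higher and 2 lower. The activating partners rose most: Mybl2 (B-MYB) had 11.5, 9.76 and 11.5 FPKM in the Dyrk1-labelled libraries, against 3.29 to 7.02 FPKM (median 4.77) in the other 12 (log2 difference 1.03 ± 0.09, adjusted p = 1.14e-05), and Foxm1 had 12.3, 11.5 and 11.9 FPKM under the Dyrk1 label and 3.27 to 7.82 FPKM (median 5.88) under the others (log2 difference 0.99 ± 0.09, adjusted p = 1.52e-05). Both lay above all 12 libraries, and both passed against each label. Rbl1, which encodes p107, averaged 26.5 ± 0.572 FPKM under the Dyrk1 label and 19.5 ± 1.12 under the others (log2 difference 0.43 ± 0.05, adjusted p = 5.95e-05), also with no overlap. Rbl2, which encodes p130, was lower, at 28.6, 30.99 and 36.9 FPKM in the Dyrk1-labelled libraries, against 35.5 to 58.5 FPKM (median 43.1) in the other 12 (log2 difference -0.44 ± 0.07, adjusted p = 0.00044). There the groups overlapped, the labels Mef2c and Mef2d held 55.6 and 49.7 FPKM, and the call ended with the 12 libraries as 1 group (adjusted p = 0.0841). The MuvB core genes Lin54, Lin9 and Rbbp4 rose by 0.40, 0.39 and 0.23 on the log2 scale, and the E2F partner Tfdp1 by 0.36. E2f5, a repressive E2F, was lower (log2 difference -0.52 ± 0.15, adjusted p = 0.0237). Calls that rested on few libraries are marked here and below as calls that ended, with the adjusted p reached in the setting named. Other alternatives could give larger values, up to 0.383 for Cdkn1b, 0.489 for Klrb1c and 0.504 for H2-T22. Tfdp1 and E2f5 ended on leaving out 1 library, Tfdp1 (0.075 without Dyrk1 replicate 1) and E2f5 (0.125 without Dyrk1 replicate 3). Among 13 listed partners and substrates of the kinases, only Ccnd3 (adjusted p = 0.0214) and Cdkn1b (adjusted p = 0.0467) passed, against 21.0% of all genes. Each rose by under 0.2 on the log2 scale. Their calls ended on leaving out single libraries, Ccnd3 (0.115 without Dyrk1 replicate 1) and Cdkn1b (up to 0.128 on leaving out any of 14 libraries in turn). Of 6 tested DYRK and HIPK kinase genes, Dyrk1b alone passed.

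Of 19 tested D cyclins, cyclin-dependent kinases and their inhibitors, 8 were higher and 1 lower, against 9.27% and 11.7% of all genes. Without replicate 1 of the Dyrk1 label 5 were higher and 1 lower. Cdkn2c, which encodes the CDK4 and CDK6 inhibitor p18, had 21.5, 22.01 and 24.1 FPKM in the Dyrk1-labelled libraries, against 6.33 to 11.6 FPKM (median 8.30) in the other 12. It lay above all 12 libraries and passed against each label (log2 difference 1.32 ± 0.10, adjusted p = 5.24e-06). Cdkn1a, which encodes p21, had 5.57, 6.95 and 8.22 FPKM under the Dyrk1 label and 1.63 to 5.43 FPKM (median 2.84) under the others (log2 difference 1.05 ± 0.16, adjusted p = 0.00039), with no overlap, though not against each label (largest adjusted p = 0.0817, against HDAC1). Btg2, an antiproliferative gene, averaged 145 ± 17.7 FPKM under the Dyrk1 label and 86.7 ± 9.62 under the others (log2 difference 0.74 ± 0.07, adjusted p = 1.42e-05), and Ccng2, an atypical cyclin of quiescent cells, 26.8 ± 2.12 FPKM under the Dyrk1 label and 20.7 ± 1.37 under the others (log2 difference 0.36 ± 0.05, adjusted p = 0.000172). Cdkn1c, which encodes p57, was the member that fell, to 1.36, 0.999 and 1.43 FPKM, against 1.84 to 3.42 FPKM (median 2.85) (log2 difference -0.72 ± 0.12, adjusted p = 0.00114). Cdk4 and Cdkn2a also passed (adjusted p = 0.0459 and adjusted p = 0.0324), with calls that ended for Cdk4 (up to 0.197 on leaving out any of 12 libraries in turn) and Cdkn2a (0.0505 without HDAC1 replicate 2, 0.0918 without Dyrk1 replicate 1 and 0.12 without Dyrk1 replicate 2).

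Within a list of p53 targets, 10 of 32 tested members were higher and 3 lower, against 9.27% and 11.7% of all genes, while the median of the list was 0.03. Without replicate 1 of the Dyrk1 label 8 were higher and 3 lower. Sesn2, a stress-induced sestrin that restrains mTORC1, had 13.97, 13.9 and 18.8 FPKM in the Dyrk1-labelled libraries, against 3.04 to 5.01 FPKM (median 3.66) in the other 12 (log2 difference 1.82 ± 0.10, adjusted p = 2.46e-07). It had the largest rise of the genes named by the fixed rule. Bbc3, which encodes the cell death activator PUMA, had 58.4, 68.01 and 55.05 FPKM under the Dyrk1 label and 16.2 to 23.4 FPKM (median 19.996) under the others (log2 difference 1.57 ± 0.08, adjusted p = 1.61e-07). Neither gene overlapped with the others in any library, and their largest adjusted p-values against single labels were 6.58e-06 and 3.88e-06. Phlda3, an inhibitor of AKT, averaged 6.49 ± 0.476 FPKM under the Dyrk1 label and 2.85 ± 0.575 under the others (log2 difference 0.98 ± 0.12, adjusted p = 0.000119), Trp53inp1, a stress protein, 101 ± 10.6 FPKM under the Dyrk1 label and 68.8 ± 4.10 under the others (log2 difference 0.54 ± 0.06, adjusted p = 2.79e-05), and Apaf1, of the apoptosome, 12.1 ± 1.66 FPKM under the Dyrk1 label and 9.07 ± 1.11 under the others (log2 difference 0.38 ± 0.07, adjusted p = 0.00293). The proliferation-linked member Ckap2 rose by 1.09 and Btg2 and Cdkn1a are given above. Ei24 and Pidd1 completed the rises, with calls that ended for Ei24 (0.0934 without Dyrk1 replicate 1 and 0.161 without Dyrk1 replicate 3) and Pidd1 (0.124 without Dyrk1 replicate 2 and 0.134 without Dyrk1 replicate 1). Xpc, of DNA repair, fell, at 7.42 ± 0.329 FPKM under the Dyrk1 label and 10.4 ± 1.08 under the others (log2 difference -0.43 ± 0.06, adjusted p = 0.000299), Aen changed by -0.17 (adjusted p = 0.00785), and Plk2 by -0.44 with a call that ended (0.169 without Dyrk1 replicate 3).

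Other genes at the top of the rises belonged to several groups. Pik3r3, which encodes the p55 gamma regulatory subunit of PI3-kinase, had 6.53, 8.64 and 7.19 FPKM in the Dyrk1-labelled libraries, against 1.15 to 2.36 FPKM (median 1.72) in the other 12 (log2 difference 1.63 ± 0.11, adjusted p = 1.08e-06). Rec8, a cohesin subunit best known from meiosis, had 20.7, 28.6 and 18.8 FPKM under the Dyrk1 label and 5.92 to 11.5 FPKM (median 7.98) under the others (log2 difference 1.39 ± 0.13, adjusted p = 1.37e-05). Both lay above all 12 libraries. Pclaf, a PCNA partner, averaged 66.8 ± 7.63 FPKM under the Dyrk1 label and 26.8 ± 6.93 under the others, E2f8, a repressive E2F, 10.4 ± 0.275 FPKM under the Dyrk1 label and 3.88 ± 1.11 under the others, Kif18b, a microtubule-shortening kinesin, 11.3 ± 1.07 FPKM under the Dyrk1 label and 4.20 ± 1.34 under the others, and Stmn1, which destabilises microtubules, 141 ± 29.9 FPKM under the Dyrk1 label and 59.6 ± 12.5 under the others, all with adjusted p-values of 3.87e-05 or lower. Hist1h2af, a replication-dependent H2A gene, had 5.79, 4.26 and 8.31 FPKM in the Dyrk1-labelled libraries, against 0.326 to 2.99 FPKM (median 1.83) in the other 12 (log2 difference 1.42 ± 0.25, adjusted p = 0.00125). It belongs to a multigene family of near-identical copies, and its count is uncertain.

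The largest falls included surface, metabolic and secreted gene products. Ly6c1, a surface protein of T cell subsets, had 25.3, 26.8 and 12.4 FPKM in the Dyrk1-labelled libraries, against 52.1 to 116 FPKM (median 85.3) in the other 12 (log2 difference -1.94 ± 0.20, adjusted p = 2.79e-05). All 3 libraries were below all 12, with replicate 3 the lowest, and since Ly6c2 is a near copy the assignment of its reads is uncertain. Igsf23, an immunoglobulin superfamily gene, had 8.57, 7.32 and 5.76 FPKM under the Dyrk1 label and 17.5 to 33.9 FPKM (median 24.6) under the others (log2 difference -1.67 ± 0.09, adjusted p = 2.46e-07). Nrn1, which encodes neuritin, had 7.96, 10.1 and 10.3 FPKM in the Dyrk1-labelled libraries, against 20.8 to 43.9 FPKM (median 25.8) in the other 12 (log2 difference -1.49 ± 0.08, adjusted p = 2.62e-07). For both genes the groups were separate, and the Mef2c label was highest, at 33.6 and 41.2 FPKM. Gabrr2, a GABA receptor subunit, averaged 1.66 ± 0.793 FPKM under the Dyrk1 label and 6.82 ± 1.90 under the others (log2 difference -1.56 ± 0.16, adjusted p = 2.08e-05), Ppm1j, a protein phosphatase, 6.99 ± 1.99 FPKM under the Dyrk1 label and 20.7 ± 5.32 under the others (log2 difference -1.43 ± 0.14, adjusted p = 1.99e-05), and Rln3, the hormone relaxin-3, 20.3 ± 5.28 FPKM under the Dyrk1 label and 55.2 ± 17.1 under the others (log2 difference -1.37 ± 0.13, adjusted p = 1.42e-05). Prrt1, Rflnb and Vipr1, a receptor for the neuropeptide VIP, had log2 differences of -1.10, -1.02 and -0.96. Ldhb, a lactate dehydrogenase subunit, and Ckb, brain-type creatine kinase, each fell by 0.97 on the log2 scale. All of these lay below all 12 libraries.

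**Figure D4:**
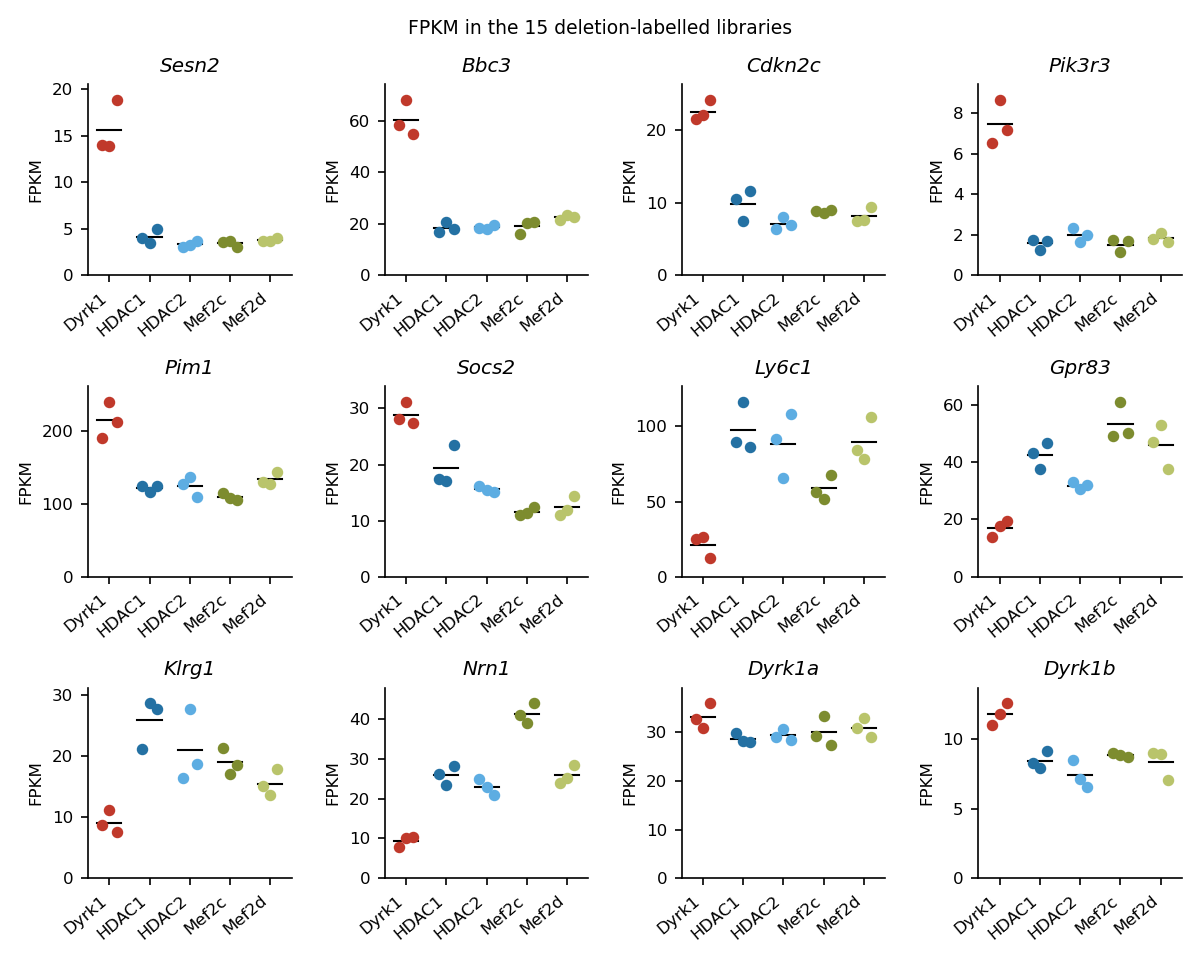
FPKM (linear axis from 0) of 12 genes in the 15 deletion-labelled libraries (points) with the mean of each label (line), the Dyrk1 label leftmost. Sesn2, Bbc3, Cdkn2c, Pik3r3, Pim1 and Socs2 lie above every other library under the Dyrk1 label, Ly6c1, Gpr83, Klrg1 and Nrn1 below, Dyrk1a overlaps, and Dyrk1b lies above.

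Stress programmes were not moved as wholes. Of 30 tested genes of the ATF4 amino acid response, 6 were higher and 1 lower, against 9.27% and 11.7% of all genes, with a median of 0.08. Besides Sesn2, the serine synthesis genes Phgdh and Psat1 rose. Phgdh averaged 79.03 ± 3.98 FPKM under the Dyrk1 label and 60.9 ± 5.91 under the others (log2 difference 0.38 ± 0.07, adjusted p = 0.00265), and Psat1 37.6 ± 4.75 FPKM under the Dyrk1 label and 27.6 ± 3.33 under the others (log2 difference 0.44 ± 0.09, adjusted p = 0.00414). The tRNA synthetase genes Aars, Wars and Mars rose by 0.25, 0.21 and 0.21, and Cebpb was lower (log2 difference -0.70), with calls that ended for Aars (0.116 without Dyrk1 replicate 3), Wars (0.06 without Dyrk1 replicate 1 and 0.114 without Dyrk1 replicate 3), Mars (0.0776 without Dyrk1 replicate 3) and Cebpb (0.0693 without Dyrk1 replicate 3). In the unfolded protein response 1 of 16 genes passed, Edem1, which helps to clear misfolded proteins, and it fell, at 39.7 ± 1.26 FPKM under the Dyrk1 label and 51.6 ± 4.96 under the others (log2 difference -0.36 ± 0.06, adjusted p = 0.000525). Among 15 heat shock genes Bag3, a co-chaperone, fell, at 3.33 ± 0.554 FPKM under the Dyrk1 label and 5.23 ± 0.593 under the others (log2 difference -0.52 ± 0.10, adjusted p = 0.00235), and Hsp90aa1 was higher (adjusted p = 0.0445), a call that ended (up to 0.243 on leaving out any of 11 libraries in turn). In the glutathione and NRF2 list 4 of 17 genes fell and none rose, against 11.7% and 9.27% of all genes. Gsta4, a glutathione transferase for lipid aldehydes, had 5.74, 4.27 and 3.35 FPKM in the Dyrk1-labelled libraries, against 5.84 to 28.3 FPKM (median 14.5) in the other 12 (log2 difference -1.50 ± 0.18, adjusted p = 6.41e-05), just below the lowest of the 12, a Mef2d-labelled library. Mgst2 averaged 15.6 ± 1.55 FPKM under the Dyrk1 label and 25.5 ± 4.10 under the others (log2 difference -0.66 ± 0.10, adjusted p = 0.000432), and Gsto1 and Gstk1 passed with calls that ended for Gsto1 (0.194 with the 12 others as 1 group) and Gstk1 (0.0698 without Dyrk1 replicate 3).

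Survival and cytokine signalling genes gave calls in both directions. Of 16 tested BCL2 family genes 4 were higher and 2 lower, against 9.27% and 11.7% of all genes. The counts were the same without replicate 1. Bbc3 was the largest, Bak1, a pore former, rose, at 26.9 ± 1.64 FPKM under the Dyrk1 label and 20.6 ± 1.40 under the others (log2 difference 0.37 ± 0.05, adjusted p = 0.00036), and Mcl1, a protector, averaged 275 ± 23.05 FPKM under the Dyrk1 label and 219 ± 20.2 under the others (log2 difference 0.33 ± 0.06, adjusted p = 0.000969). Bcl2l1, which encodes BCL-XL, rose by 0.33. Bcl2, another protector, fell to 36.8, 38.8 and 38.97 FPKM, against 46.2 to 56.6 FPKM (median 51.01), below all 12 libraries (log2 difference -0.40 ± 0.06, adjusted p = 0.0003). Bcl2l2 was lower (adjusted p = 0.0147). The calls of Bcl2l1 and Bcl2l2 ended under 1 or more alternatives, as for Bcl2l1 (0.0504 without the HDAC2 label) and Bcl2l2 (0.0592 without Dyrk1 replicate 3 and 0.0617 without Dyrk1 replicate 1). In the list of the IL-2 receptor, STAT5 and SOCS genes, 2 of 14 rose and 3 fell, against 9.27% and 11.7% of all genes. Without replicate 1 the counts were 2 and 1. Pim1, a kinase induced by STAT5, had 191, 239.8 and 213 FPKM in the Dyrk1-labelled libraries, against 105 to 144 FPKM (median 125) in the other 12 (log2 difference 0.80 ± 0.07, adjusted p = 1.14e-05), and Socs2, a feedback inhibitor of cytokine signalling, had 28.1, 31.2 and 27.4 FPKM under the Dyrk1 label and 10.96 to 23.5 FPKM (median 14.8) under the others (log2 difference 0.95 ± 0.09, adjusted p = 1.54e-05). Both were above all 12 libraries and passed against each label. Beside Bcl2, Jak1 and Il2rg were lower (log2 differences -0.22 and -0.24), with calls that ended for Jak1 (0.0515 without Dyrk1 replicate 1) and Il2rg (0.06 without Dyrk1 replicate 1 and 0.15 without Dyrk1 replicate 3). Of 29 PI3K, mTOR and FOXO regulators, Pik3r3 and Sesn2 rose and 5 fell, against 9.27% and 11.7% of all genes. Castor2, a relative of the mTORC1 arginine sensor CASTOR1, fell, at 3.28 ± 0.397 FPKM under the Dyrk1 label and 4.80 ± 0.856 under the others (log2 difference -0.43 ± 0.07, adjusted p = 0.001), Pik3r5, a PI3-kinase gamma regulator, averaged 23.4 ± 1.48 FPKM under the Dyrk1 label and 31.1 ± 2.98 under the others (log2 difference -0.39 ± 0.07, adjusted p = 0.00247), and Pik3cd, the delta catalytic subunit, changed by -0.19 (adjusted p = 0.00248). Castor1 and Inpp4b had calls that ended for Castor1 (0.113 without Dyrk1 replicate 3) and Inpp4b (up to 0.201 on leaving out any of 9 libraries in turn).

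Of 20 tested genes of resting and central T cells, 12 were lower, none was higher and 8 did not pass, against 11.7% of all genes lower. The list had a median of -0.28, and 6 members passed against each label, against 2.05% of all genes. Nsg2 had 94.004, 84.97 and 76.5 FPKM in the Dyrk1-labelled libraries, against 116 to 153 FPKM (median 133) in the other 12 (log2 difference -0.65 ± 0.07, adjusted p = 3.04e-05), Txk, a Tec family kinase, had 17.1, 20.4 and 18.5 FPKM under the Dyrk1 label and 25.1 to 33.5 FPKM (median 28.5) under the others (log2 difference -0.58 ± 0.06, adjusted p = 4.19e-05), and Satb1, a chromatin organiser, had 48.3, 42.7 and 39.2 FPKM in the Dyrk1-labelled libraries, against 54.4 to 72.6 FPKM (median 59.9) in the other 12 (log2 difference -0.49 ± 0.05, adjusted p = 4.32e-05). None of these genes overlapped between the groups. Ly6c1 and Bcl2 are given above. Tcf7, the transcription factor TCF1, averaged 278 ± 11.01 FPKM under the Dyrk1 label and 327 ± 17.9 under the others (log2 difference -0.23 ± 0.05, adjusted p = 0.00429), and Lef1, Foxp1, Bach2, Igfbp4 and Dapl1 also fell, with calls that ended for Lef1 (0.0787 without Dyrk1 replicate 2 and 0.121 without Dyrk1 replicate 3), Foxp1 (0.0773 without Dyrk1 replicate 3 and 0.0837 without Dyrk1 replicate 2), Bach2 (0.0724 without Dyrk1 replicate 2 and 0.0821 without Dyrk1 replicate 3), Igfbp4 (0.066 without Dyrk1 replicate 3) and Dapl1 (0.0584 without Dyrk1 replicate 2 and 0.128 without Dyrk1 replicate 3). Dapl1 had 13.3, 6.37 and 2.70 FPKM, so its replicate 1 was within the range of the others. The mean over the list was 5.96, 5.71 and 5.58 in the Dyrk1-labelled libraries, against 6.05 to 6.23 in the other 12. It was thus lower in all 3 libraries, least in replicate 1. The number of members lower was 13 without replicate 1, 8 without replicate 2 and 8 without replicate 3.

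Treg identity genes showed no common direction. Of 20 tested, 3 rose and 3 fell, against 9.27% and 11.7% of all genes, with a median of 0.05. Gpr83, a receptor enriched in Treg, had 13.99, 17.8 and 19.6 FPKM in the Dyrk1-labelled libraries, against 30.6 to 60.99 FPKM (median 44.9) in the other 12 (log2 difference -1.27 ± 0.11, adjusted p = 8.43e-06), below all 12 libraries. Izumo1r, the folate receptor 4 of Treg, averaged 311 ± 46.04 FPKM under the Dyrk1 label and 425 ± 54.2 under the others (log2 difference -0.45 ± 0.07, adjusted p = 0.000557). Lrrc32, the GARP receptor that presents latent TGF-beta, averaged 72.6 ± 6.54 FPKM under the Dyrk1 label and 46.4 ± 22.4 under the others, but the Mef2c label held 17.7 FPKM and the HDAC1 label 65.6, and the call ended (0.249 with the 12 others as 1 group). Socs2 is given above, and Ecm1 and Itgae had calls that ended for Ecm1 (0.0688 without Dyrk1 replicate 2 and 0.0853 without Dyrk1 replicate 1) and Itgae (up to 0.153 on leaving out any of 6 libraries in turn). Among 30 effector Treg genes 10 were higher and 3 lower, against 9.27% and 11.7% of all genes, with a median of 0.19. Without replicate 1 of the Dyrk1 label 12 were higher and 1 lower. Singly, 2 were higher and 3 lower than under HDAC1 (median 0.06), against 3.78% and 5.73% of all genes. Higher members numbered 8, 7 and 7 against HDAC2, Mef2c and Mef2d. Against each label 1 was higher and 1 lower. The mean log2(FPKM + 1) of the list was 4.65 to 4.78 in the Dyrk1-labelled libraries, 4.70 to 4.86 under HDAC1 and 4.67 to 4.76 in wild type. Klrg1, an inhibitory receptor of terminally differentiated cells, had 8.68, 11.2 and 7.53 FPKM under the Dyrk1 label and 13.6 to 28.6 FPKM (median 18.7) under the others (log2 difference -1.05 ± 0.15, adjusted p = 0.000271), below all 12. Prdm1, which encodes BLIMP1, rose, at 9.16 ± 0.583 FPKM under the Dyrk1 label and 6.59 ± 0.688 under the others (log2 difference 0.42 ± 0.07, adjusted p = 0.0012) and passed against each label. Lgals1, galectin-1, averaged 256 ± 31.3 FPKM under the Dyrk1 label and 174 ± 40.3 under the others (log2 difference 0.58 ± 0.11, adjusted p = 0.00236) and the chemokine receptor gene Ccr8 34.8 ± 4.19 FPKM under the Dyrk1 label and 24.2 ± 3.78 under the others (log2 difference 0.51 ± 0.12, adjusted p = 0.00787). For these 2 genes the groups overlapped. Ccr4, Icos, Irf4, Gata3, Tnfrsf1b, Nfil3 and Anxa2 also passed as higher and Il1rl1 and Areg as lower, with calls that ended for Ccr4 (0.169 with the 12 others as 1 group), Ccr8 (0.0637 with library weights), Icos (0.062 without Dyrk1 replicate 3), Irf4 (0.118 without Dyrk1 replicate 3 and 0.138 without Dyrk1 replicate 1), Gata3 (up to 0.208 on leaving out any of 10 libraries in turn), Tnfrsf1b (up to 0.187 on leaving out any of 6 libraries in turn), Nfil3 (up to 0.252 on leaving out any of 9 libraries in turn), Anxa2 (0.0521 without Dyrk1 replicate 1), Il1rl1 (0.0781 without Dyrk1 replicate 2 and 0.129 without Dyrk1 replicate 1) and Areg (0.0504 without Mef2c replicate 1, 0.139 without Dyrk1 replicate 1 and 0.155 without Dyrk1 replicate 3).

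The lists of other helper programmes were short, and their counts stand beside 9.27% higher and 11.7% lower of all genes. In the Th1 list 1 of 15 rose and 1 fell: Stat4 fell, at 11.9 ± 1.53 FPKM under the Dyrk1 label and 15.6 ± 1.61 under the others (log2 difference -0.36 ± 0.07, adjusted p = 0.00227), and Runx3 was higher with a call that ended (0.0889 without Dyrk1 replicate 3). In the Th2 list, which shares its members Ccr4, Ccr8, Gata3 and Il1rl1 with the effector list, 3 of 9 rose and 1 fell. Ccr6 alone of 8 Th17 genes passed, as lower (adjusted p = 0.016), and its call ended (0.0623 without Dyrk1 replicate 3 and 0.0907 without Dyrk1 replicate 2). Of 11 follicular T cell genes Icos and Il21 were higher and Tox2 was lower, the last at 4.39 ± 1.02 FPKM under the Dyrk1 label and 6.71 ± 1.31 under the others (log2 difference -0.52 ± 0.11, adjusted p = 0.00371), and the call of Il21 ended (up to 0.161 on leaving out any of 12 libraries in turn).

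In the lists of the NFAT axis, through which DYRK1 kinases act in T cells, the share of genes that passed was no larger than the 21.0% of all genes. None of 20 immediate early genes passed in the limma test, with 2 at an unadjusted p under 0.05. Jun had 75.2, 111 and 37.1 FPKM in the Dyrk1-labelled libraries, against 67.4 to 153 FPKM (median 104) in the other 12, and Nr4a1 had 129.6, 193 and 85.2 FPKM under the Dyrk1 label and 60.6 to 148 FPKM (median 94.8) under the others. In both genes the Dyrk1-labelled libraries spread widely, with replicate 3 lowest and replicate 2 highest. Of 14 NFAT and calcineurin genes Ppp3cc, a catalytic subunit of calcineurin, was lower (log2 difference -0.32 ± 0.09, adjusted p = 0.0234), a call that ended (0.0794 without Dyrk1 replicate 2 and 0.136 without Dyrk1 replicate 3). Of 16 NFAT-responsive genes Il21 and Irf4 were higher and Cd40lg lower. The calls of Il21 and Irf4 ended as given above. That of Cd40lg ended too (0.0674 without Dyrk1 replicate 1, and up to 0.276 over all alternatives). In that list 7 genes had an unadjusted p under 0.05 with limma, 6 of them higher and 1 lower, and the median was 0.13. In the NF-kB list of 17, Cd83, a maturation marker, had 56.9, 55.8 and 52.5 FPKM in the Dyrk1-labelled libraries, against 24.9 to 42.95 FPKM (median 32.6) in the other 12 (log2 difference 0.68 ± 0.06, adjusted p = 1.36e-05), and Nfkb2, the non-canonical subunit, had 68.7, 70.3 and 70.9 FPKM under the Dyrk1 label and 51.6 to 58.7 FPKM (median 55.2) under the others (log2 difference 0.33 ± 0.05, adjusted p = 0.000365), both above all 12 libraries. Bcl3 was also higher and Tnip1 and Traf1 were lower, with calls that ended for Bcl3 (up to 0.165 on leaving out any of 9 libraries in turn), Tnip1 (0.33 with the 12 others as 1 group) and Traf1 (0.06 without Dyrk1 replicate 1). In the TGF-beta list of 14 Tgfb1 rose, at 129 ± 3.24 FPKM under the Dyrk1 label and 111 ± 9.25 under the others (log2 difference 0.22 ± 0.04, adjusted p = 0.00178) beside Lrrc32.

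Of 14 adhesion genes 6 were lower and none higher, against 11.7% of all genes lower, with a median of -0.13. The count lower was 3 without replicate 1 of the Dyrk1 label, and 3 with scaling by median ratios. The mean log2(FPKM + 1) of the list was 5.076, 5.111 and 5.311 in the Dyrk1-labelled libraries, against 5.269 to 5.375 in the other 12. Replicate 3 thus lay within the range of the others. The wild-type libraries, at 5.121 to 5.215, lay below that range. Itgb3, the beta 3 integrin, averaged 12.9 ± 2.57 FPKM under the Dyrk1 label and 19.4 ± 2.19 under the others (log2 difference -0.57 ± 0.10, adjusted p = 0.00167) and passed against each label. Itga2 had 0.744, 0.828 and 0.838 FPKM under the Dyrk1 label and 0.962 to 1.60 FPKM (median 1.15) under the others (log2 difference -0.29 ± 0.06, adjusted p = 0.00643), at the edge of the filter. Itgb7, Itga6 and Itgae also fell, with calls that ended for Itgb7 (0.117 without Dyrk1 replicate 1) and Itga6 (0.0802 without Dyrk1 replicate 2 and 0.105 without Dyrk1 replicate 1). With scaling by median ratios their adjusted p-values were 0.0887, 0.0765 and 0.0651. Among 17 chemokine receptors Ccr4, Ccr8 and S1pr4 were higher and Ccr6 and Gpr183 lower. Gpr183, a receptor for oxysterols, fell, at 12.5 ± 0.908 FPKM under the Dyrk1 label and 17.4 ± 1.88 under the others (log2 difference -0.44 ± 0.09, adjusted p = 0.00343), below all 12, and the call of S1pr4 ended (0.0508 without Dyrk1 replicate 1). Of 20 costimulatory and TNF receptor genes 2 rose and 4 fell, against 9.27% and 11.7% of all genes. Cd96 had 59.3, 56.004 and 56.3 FPKM in the Dyrk1-labelled libraries, against 70.6 to 88.95 FPKM (median 82.8) in the other 12 (log2 difference -0.49 ± 0.04, adjusted p = 8.43e-06), Tnfrsf1a averaged 15.02 ± 0.699 FPKM under the Dyrk1 label and 19.5 ± 1.25 under the others (log2 difference -0.35 ± 0.05, adjusted p = 0.000525), and Cd5, a brake on antigen receptor signals, 224 ± 13.6 FPKM under the Dyrk1 label and 268 ± 10.1 under the others (log2 difference -0.26 ± 0.05, adjusted p = 0.00135). These receptors lay below all 12 libraries and passed against each label, while the call of Cd160 ended (0.0637 without Dyrk1 replicate 3, 0.071 without Dyrk1 replicate 1 and 0.0837 without Dyrk1 replicate 2).

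Interferon and antigen presentation lists stayed near the background. Of 24 interferon-stimulated genes 3 rose and 3 fell. Oasl2 averaged 5.36 FPKM under the Dyrk1 label, against 7.04, 5.96, 0.361 and 0.445 FPKM under HDAC1, HDAC2, Mef2c and Mef2d, and it did not pass against HDAC1 or HDAC2 singly. Ifi44 averaged 0.495 FPKM, against 1.26, 1.30, 5.10 and 1.01 FPKM under the same labels. The calls of the 6 genes ended for Oasl2 (0.388 with the 12 others as 1 group), Ifi44 (0.136 with the 12 others as 1 group), Oas3 (0.0552 without Dyrk1 replicate 1 and 0.0975 without Dyrk1 replicate 3), Ifi27l2a (up to 0.161 on leaving out any of 8 libraries in turn), Usp18 (0.149 without Dyrk1 replicate 3) and Xaf1 (0.153 without Dyrk1 replicate 3). Of 16 genes of MHC class I and antigen processing Tap1 was higher and H2-Q7 and H2-T22 were lower, with adjusted p-values of 0.0462, 0.0341 and 0.0445, and their calls ended for Tap1 (up to 0.123 on leaving out any of 13 libraries in turn), H2-Q7 (up to 0.167 on leaving out any of 7 libraries in turn) and H2-T22 (up to 0.154 on leaving out any of 12 libraries in turn). The H2 genes are near copies of each other, and their counts are uncertain.

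Of 19 glycolysis genes 5 were lower and 2 higher, against 11.7% and 9.27% of all genes, and the list's median was 0.02. Without replicate 1 of the Dyrk1 label 5 were lower and none higher. Pdk1, a kinase that keeps pyruvate out of the citric acid cycle, had 22.1, 21.2 and 18.1 FPKM in the Dyrk1-labelled libraries, against 25.4 to 39.4 FPKM (median 33.6) in the other 12 (log2 difference -0.69 ± 0.07, adjusted p = 2.79e-05). Pfkm averaged 6.89 ± 0.717 FPKM under the Dyrk1 label and 9.16 ± 0.418 under the others (log2 difference -0.37 ± 0.06, adjusted p = 0.000578), and the glucose transporter genes had 13.1 ± 1.00 FPKM under the Dyrk1 label and 17.2 ± 0.998 under the others for Slc2a1 (adjusted p = 0.000992) and, for Slc2a3, 13.7 ± 1.59 FPKM under the Dyrk1 label and 19.7 ± 2.76 under the others (adjusted p = 0.000261). Pdk1, Pfkm and Slc2a1 lay below all 12, as did Pfkp, with a log2 difference of -0.23. Gapdh and Pgam1 rose with calls that ended for Gapdh (up to 0.163 on leaving out any of 12 libraries in turn) and Pgam1 (0.0657 without Dyrk1 replicate 1). Of 29 genes of cholesterol and fatty acid synthesis 7 fell and 3 rose, against 11.7% and 9.27% of all genes. Without replicate 1 the counts were 5 and 4. Elovl6, a fatty acid elongase, fell, at 2.42 ± 0.193 FPKM under the Dyrk1 label and 3.81 ± 0.517 under the others (log2 difference -0.49 ± 0.07, adjusted p = 0.000191), Dhcr7, of the last step to cholesterol, averaged 11.9 ± 0.247 FPKM under the Dyrk1 label and 14.2 ± 1.01 under the others (log2 difference -0.24 ± 0.04, adjusted p = 0.00149), while the desaturase genes rose: Fads1 averaged 7.63 ± 0.474 FPKM under the Dyrk1 label and 5.29 ± 0.431 under the others (log2 difference 0.46 ± 0.05, adjusted p = 3.43e-05) and Scd2 44.9 ± 3.54 FPKM under the Dyrk1 label and 33.5 ± 5.80 under the others (log2 difference 0.43 ± 0.06, adjusted p = 0.000172). Insig1 also rose, by 0.28. Of 33 nuclear genes of oxidative phosphorylation 2 passed, both as higher. The ATP synthase subunit gene Atp5a1 was one, with a call that ended (0.053 without Dyrk1 replicate 1 and 0.0578 without Dyrk1 replicate 3). Of 36 ribosomal protein genes Rpl3 and Rpl30 passed, with calls that ended for Rpl3 (up to 0.126 on leaving out any of 5 libraries in turn) and Rpl30 (0.088 without Dyrk1 replicate 2 and 0.0968 without Dyrk1 replicate 1). Rpl30 averaged 457 FPKM under the Dyrk1 label and 160.2 FPKM under Mef2c, and its difference turned to -0.18 without the Mef2c label. Ribosomal protein genes share reads with many pseudogenes, so their values are uncertain.

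**Figure D5:**
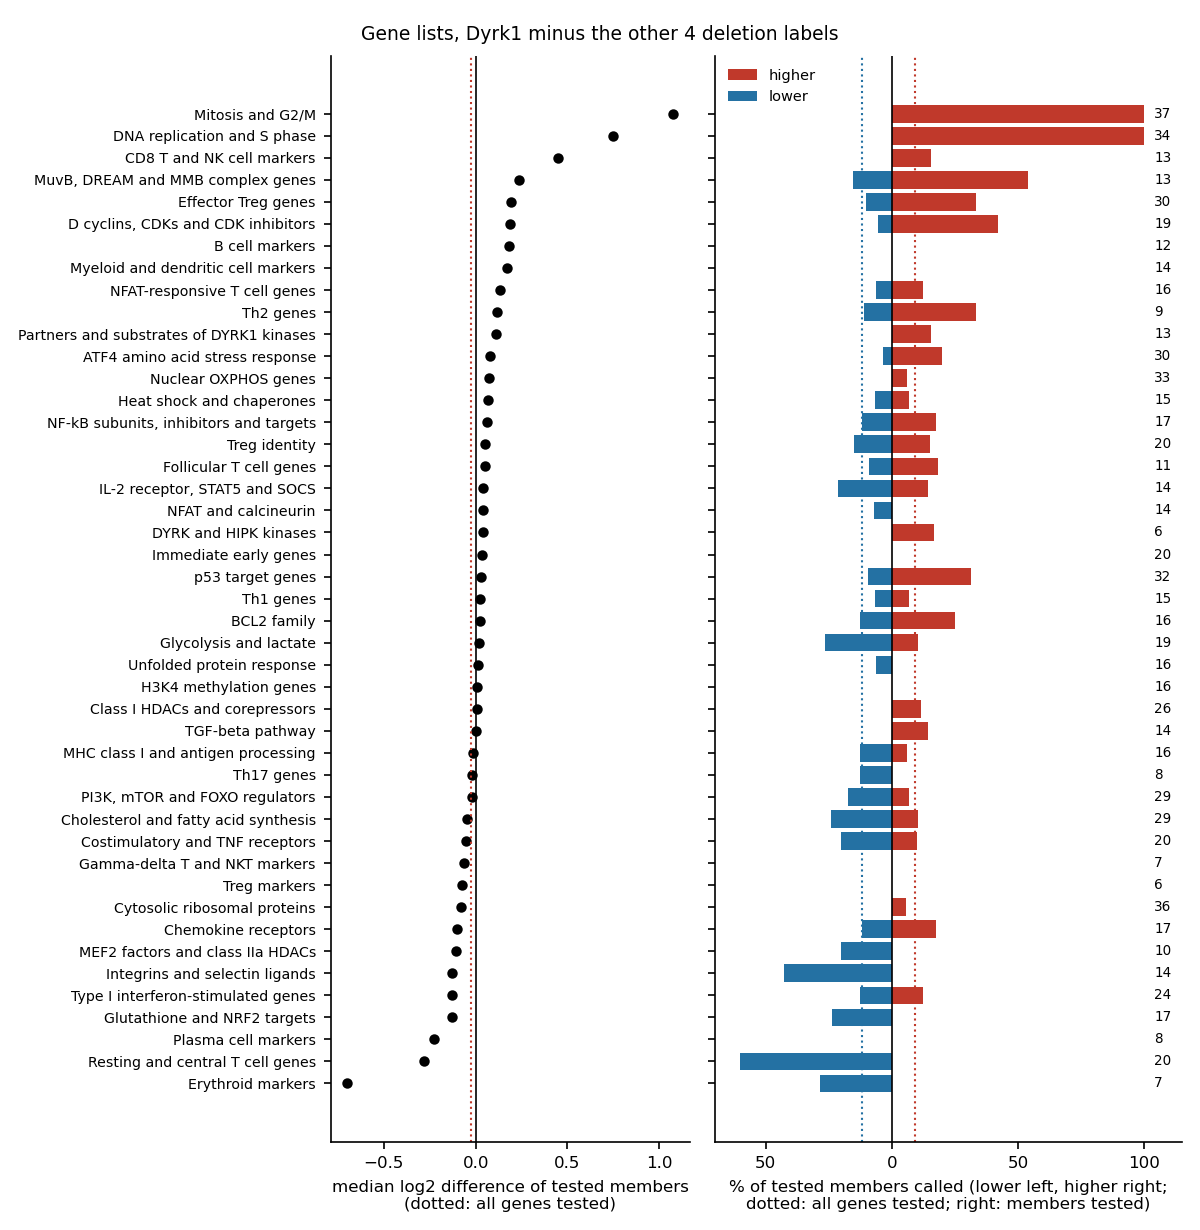
Median log2 difference of the tested members of each gene list (left) and the percentage of tested members called lower (left of 0) or higher (right of 0) under the Dyrk1 label (right), with the number tested at the right edge. The S phase and mitosis lists reach 100% higher, the resting T cell list has 12 of 20 lower, and dotted lines mark all genes tested (9.27% higher, 11.7% lower). Erythroid, B cell, myeloid and CD8 T and NK cell lists track RNA of other cells.

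Chromatin genes linked to the other labels gave few calls. Among 26 class I HDAC and corepressor genes Hdac1, Sap30 and Mta2 were higher. Sap30, a SIN3 complex subunit, had 8.90, 5.50 and 5.90 FPKM in the Dyrk1-labelled libraries, against 3.13 to 6.30 FPKM (median 4.07) in the other 12 (log2 difference 0.53 ± 0.12, adjusted p = 0.00628), with replicate 1 highest and the others inside the range of the 12, and the call of Mta2 ended (0.0591 without Dyrk1 replicate 3). Among 10 MEF2 and class IIa HDAC genes Mef2d and Hdac4 fell, the last with a call that ended (0.0981 without Dyrk1 replicate 1). None of 16 H3K4 methylation genes passed with limma, with 4 at an unadjusted p under 0.05. Kmt2c and Kmt2e came nearest, with adjusted p-values of 0.0626 and 0.0695.

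Transcripts of other cells differed between libraries and between labels. Against the mean of the other labels, none of 12 B cell, 8 plasma cell, 7 gamma-delta T and NKT or 14 myeloid markers passed with limma, and at an unadjusted p under 0.05 there were 0, 0, 1 and 1. Cd79a, of the B cell receptor, had 127, 9.46 and 6.41 FPKM in the Dyrk1-labelled libraries, against 9.52 to 56.1 FPKM (median 20.6) in the other 12, and Cd8a had 22.4, 0.939 and 0.642 FPKM under the Dyrk1 label and 0.346 to 3.90 FPKM (median 1.10) under the others. In both genes replicate 1 alone was high, while replicates 2 and 3 lay below the median of the others. Plasma cell marker sums were 4084 to 5304 FPKM under the Dyrk1 label and 1217 to 24226 FPKM elsewhere, highest in HDAC1-labelled and HDAC2-labelled libraries. Of 13 CD8 T and NK markers Gzmk and Klrb1c were higher, with calls that ended for Gzmk (0.0812 without Dyrk1 replicate 3 and 0.141 without Dyrk1 replicate 1) and Klrb1c (0.0702 without Dyrk1 replicate 1 and 0.109 without Dyrk1 replicate 3). Klrb1c has near copies, so its reads are uncertain. Of 7 tested erythroid markers the globin genes Hbb-bs and Hba-a1 were lower. Erythroid marker sums were 16.4 to 50.1 FPKM under the Dyrk1 label, against 23.9 to 317 FPKM in the other 12, and the calls ended for Hbb-bs (0.0949 without Dyrk1 replicate 1 and 0.136 without Dyrk1 replicate 2) and Hba-a1 (up to 0.168 on leaving out any of 9 libraries in turn). Against single labels, 5 of the 7 were lower than under HDAC2 and 3 lower than under HDAC1, and 4 of the 8 plasma cell markers were lower than under HDAC2. The part of these transcripts in the other results was not tested. None of 6 platelet markers was high enough to be tested. With replicate 1 left out, all 37 mitosis genes and 32 of 34 S phase genes were still higher and 13 resting T cell genes lower.

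The share of tested genes that passed ran from 16.1% on chromosome 12 to 25.3% on chromosome 13, around 21.0% in all. Within 20 Mb of Dyrk1a on chromosome 16 it was 16.2% of 68 genes, and within 20 Mb of Dyrk1b on chromosome 7 30 genes were higher and 33 lower of 350. Within 20 Mb of Mef2d on chromosome 3, 26 genes were higher and 46 lower, 25.4% of 284, and around Hdac2 and Mef2c the share was 17.8% and 16.4%. Around Hdac1 on chromosome 4, 54 genes were higher and 18 lower, 21.1% of 342, which is near the share of all genes. By the stricter rule, 23 genes there were higher and 6 lower against each label, 8.48%, against 4.72% of all genes. The 23 include Sesn2 and Pik3r3, given above among the largest rises, and the mitosis genes Cdc20 and Kif2c. Whether position plays a part in these rises was not tested. By exon length, 5.38% of the shortest quintile of genes were higher and 8.52% lower, against 9.1% and 13.19% of the longest quintile. By GC content of the exons, 10.17% of the quintile poorest in GC were higher and 10.42% lower, against 9.02% and 12.74% of the richest. Against each label, 3.52% of the poorest were higher and 1.08% lower, compared with 2.11% and 2.19% of the richest.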

How the data were processed

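RNA from sorted Treg of 18 libraries was measured per gene. Reads were aligned to mm10 with STAR and counted with HTSeq, per the submitters' processing notes, which give no versions, and the strand setting is not given in the sources used here. The deposited table holds normalized values with no unit named in its header. The deposited values were read as FPKM, which the authors made from the counts per gene before deposit by a step not given in the sources used here, because the smallest steps of each column scaled with exon length (GENCODE M21). Those steps gave the reads per library. Symbols were matched by Ensembl identifier for 34490 of 35275 identifiers.

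Genes with 1 FPKM or more in at least 3 of the 15 deletion-labelled libraries were tested on log2(FPKM + 1), a scale that understates changes of low genes, with limma 3.58.1 in R 4.3.3 (moderated variance with an intensity trend, 1 mean per label, 10 residual degrees of freedom). The contrast was the Dyrk1-labelled mean minus the mean of the other 4 label means, and the same fit gave the contrast with each label. The fit was checked on simulated data. Genes named are the genes behind the labels, the 15 largest rises and 15 largest falls that passed against each label, did not overlap and had a mean of 5 FPKM or more, and up to 4 called members of each list. Others were named after their values were seen: members of lists with few calls, and E2F and promoter examples. The members and lists were chosen with earlier results of these data known. The labels do not say that replicates came from separate mice, so p-values measure the spread between these samples, which may be technical. Same replicate numbers were not taken as pairs, and the correlations given below cannot exclude that samples of 1 number share a batch. Intervals of single counts were not computed, and all errors are spreads between libraries or standard errors of the fit. A few members that entered the counts are not reported by name here.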

Additional observations from a re-analysis of the deposited data

How the results depend on the processing

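Under 29 alternatives (15 with 1 library left out, 4 with 1 other label left out, and 10 other settings), the number of genes called was 1806 to 2791, compared with 2555 as reported, the S phase list had 31 to 34 members higher, the mitosis list 34 to 37, and the resting T cell list 8 to 13 lower. On leaving out 1 library in turn, 2131 to 2591 genes were called (934 to 1105 higher, 1150 to 1486 lower), and 376 to 577 against each label (208 to 333 higher, 168 to 265 lower). The lowest of these, 376 and 208, came without HDAC1 replicate 2, and without the HDAC1 label 866 genes passed against each of the labels left, 495 of them higher, compared with 493 without HDAC2, 568 without Mef2c and 549 without Mef2d. In the resting T cell list 1 member was higher without Dyrk1 replicate 3, against 0 as reported. Scaling by median ratios gave 1378 higher and 1195 lower, and removing trends with length and GC content gave 1505 and 1286. No filter gave 2369 of 23587 genes and a filter of 5 FPKM gave 1842 of 8884. With the 12 other libraries as 1 group 1806 were called, and with library weights 1932. With the replicate block 2329 were called and 496 against each label. Same-numbered libraries had a median correlation of deviations of -0.0483 (-0.456 to 0.429, 30 pairs), and 5 of 15 libraries correlated best with their own number, so the numbers were not taken as pairs. Of 180 called genes among the 204 named, 102 kept their call under all alternatives. The difference turned for Rpl30 (-0.18) and Xaf1 (0.014) without the Mef2c label. The cause was not tested for any of these changes. Depth limits low genes most: at the filter of 1 FPKM, values rest on few reads for short genes.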

Other observations

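The genes with the largest differences by size followed several labels and not the Dyrk1 label alone. They were chosen after their values were seen. Rps3a3, annotated as a processed pseudogene, had 867, 442 and 276 FPKM in the Dyrk1-labelled libraries and 740.5, 766 and 864 FPKM in the Mef2d-labelled ones, against 1.38, 1.60 and 1.20 FPKM under HDAC1, 1.74, 1.51 and 1.51 under HDAC2 and 1.34, 2.82 and 1.71 under Mef2c. Wild-type libraries held 1.95, 1.45 and 1.22 FPKM. Gm8730, annotated likewise, had 3.11, 2.91 and 4.19 FPKM under the Dyrk1 label, against 5.50, 4.55 and 3.84 under HDAC1, 3.10, 3.78 and 4.02 under HDAC2, 712, 794 and 866 under Mef2c and 769, 756 and 795 under Mef2d. Trim12a, of a family of close relatives, averaged 27.9 FPKM under the Dyrk1 label, against 28.7, 29.96, 0.0268 and 2.19 FPKM under HDAC1, HDAC2, Mef2c and Mef2d. Reads of processed pseudogenes can come from their parent genes, and Trim12a has close relatives, so these values are uncertain.

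The wild-type libraries, which entered no test, give further values. Of the 15 largest rises named by rule, the Dyrk1-labelled range lay above the wild-type range for 13 and overlapped it for Pclaf and Stmn1. Of the 15 largest falls, it lay below for 14 and overlapped for Prrt1. Of the 12 resting T cell genes that were lower, it lay below for 8 and overlapped for Foxp1, Bach2, Dapl1 and Bcl2. The examples that follow were chosen after their values were seen. Pclaf had 75.6, 61.6 and 63.4 FPKM under the Dyrk1 label and 53.4, 29.1 and 68.1 FPKM in wild type, and Stmn1 had 172, 139 and 113 FPKM under the Dyrk1 label and 108, 71.7 and 141 FPKM in wild type. Prrt1 had 4.42, 6.91 and 3.86 FPKM under the Dyrk1 label and 5.95, 7.10 and 5.45 FPKM in wild type, and Rbl2 had 28.6, 30.99 and 36.9 FPKM under the Dyrk1 label and 29.2, 28.02 and 26.8 FPKM in wild type. Sesn2 had 13.97, 13.9 and 18.8 FPKM in the Dyrk1-labelled libraries and 3.60, 3.65 and 3.54 FPKM in wild type. Bbc3 had 58.4, 68.01 and 55.05 FPKM under the Dyrk1 label and 20.8, 22.6 and 20.1 FPKM in wild type, and Pik3r3 had 6.53, 8.64 and 7.19 FPKM under the Dyrk1 label and 1.85, 1.94 and 1.26 FPKM in wild type. Cdkn2c had 21.5, 22.01 and 24.1 FPKM under the Dyrk1 label and 10.4, 8.73 and 12.9 FPKM in wild type. Among the falls, Ly6c1 had 25.3, 26.8 and 12.4 FPKM under the Dyrk1 label and 87.6, 116 and 88.01 FPKM in wild type, and Gpr83 had 13.99, 17.8 and 19.6 FPKM under the Dyrk1 label and 37.3, 37.7 and 34.6 FPKM in wild type. Nrn1 had 7.96, 10.1 and 10.3 FPKM under the Dyrk1 label and 18.1, 18.5 and 14.4 FPKM in wild type. Dyrk1b had 11.01, 11.8 and 12.6 FPKM under the Dyrk1 label and 6.74, 7.54 and 6.73 FPKM in wild type.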
